A study of Homo sapiens with 21 samples.

Results

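The genes described here are 47 genes of DNA replication and S phase, taken as the rows of a raw count table whose Ensembl identifier, with its version removed, maps to a fixed list of symbols. All 47 were found among the 42339 genes of the table, and all 47 passed the filter on low counts in every comparison. They lie on 20 chromosomes and were listed by their roles, with earlier results of these data known.

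Before a cell copies its DNA, the origin recognition complex, CDC6 and CDT1 load the ring-shaped MCM helicase onto replication origins, and geminin (GMNN) blocks CDT1 afterwards so that no origin is used again in the same cycle. In S phase the kinase CDC7, MCM10, CDC45 and the GINS complex turn the loaded ring into a moving helicase. DNA polymerases, the PCNA clamp and its RFC loader follow the fork, and E2F transcription factors, held back by RB1 until a cell commits to divide, switch on most of these genes together.

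Bulk RNA-seq was measured in 21 cultures of BT-549, an established triple-negative breast cancer (TNBC) cell line, with 3 cultures in each of 7 groups. The 2D group is wild-type cells grown as monolayers in RPMI1640 with serum and insulin. The 3D group is wild-type cells grown as serially passaged mammospheres (floating spheres) in MammoCult medium on ultra-low attachment plates, at passage 6, so growth format, medium and passage cannot be told apart. The 3D + GO-203 group is such mammospheres given 0.75 µM GO-203, a peptide that blocks the CQC motif in the cytoplasmic domain of the MUC1-C subunit. Its treatment time in this experiment is not given in the sources used here.

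The other 4 groups are mammospheres of 2 puromycin-selected lines that carry a lentiviral, doxycycline-inducible shRNA, with 1 shRNA per gene. These are tet-MUC1shRNA cells at passage 6 and tet-MYCshRNA cells at passage 8, each given vehicle (0.1% DMSO) or 500 ng/ml doxycycline (DOX). The time on DOX of the tet-MYCshRNA libraries is not given in the sources used here and may differ from that of the tet-MUC1shRNA libraries. No DOX-treated control shRNA library was analysed here, so DOX itself and the loss of the target cannot be told apart. In the text, MUC1 silencing and MYC silencing mean DOX against vehicle in the respective line.

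Library totals ranged from 38026597 to 99751717 counts, so counting error was small for these genes. Levels are given as CPM (counts scaled to a common library size, with TMM factors over the 21 libraries), and fold changes come from a fit of each pair of groups on its own 6 libraries. MUC1 fell by 2.06 ± 0.07 (log2 fold change ± SE, n = 3 against 3) on MUC1 silencing and MYC fell by 0.62 ± 0.08 on MYC silencing, with edgeR adjusted p = 3.0e-15 and 9.1e-05. The other gene rose in each line, MYC by 0.25 ± 0.04 on MUC1 silencing and MUC1 by 1.25 ± 0.11 on MYC silencing (edgeR adjusted p = 5.0e-05 and 5.1e-06). Under GO-203, which acts on the protein, MUC1 RNA rose by 0.33 ± 0.07 (edgeR adjusted p = 0.0019) and MYC did not pass (-0.01 ± 0.05). The DOX-treated tet-MYCshRNA replicates differed most from each other, at 19.5 to 52.8 chi-square units per degree of freedom, where replicate pairs of the other groups had 4.36 to 21, and replicate 1 was the library that stood apart. The share of counts from mitochondrial DNA moved with the groups, with 5.22% to 5.24% in 2D cells, 2.31% to 2.72% in 3D cells, 3.34% to 4.40% under GO-203, 2.60% to 2.78% and 6.36% to 6.72% in the tet-MUC1shRNA line with vehicle and DOX, and 3.37% to 4.08% and 3.96% to 5.07% in the tet-MYCshRNA line. Its part in the results was not tested. Of the receptors that define TNBC by their low level, ESR1 reached at most 1.48 CPM and PGR was at or near 0 in every library, while ERBB2 was counted at 18.4 to 41.99 CPM. Of the blood cell markers described, CD3E was at or near 0 and PTPRC and CD14 stayed at or below 1.49 CPM, and of 3 endothelial markers CDH5 and VWF were at or near 0 and PECAM1 had 2.59 to 10.1 CPM in mammospheres, against 0 or near 0 in 2D cells.

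Upstream sequence was read from RefSeq promoter windows (GRCh38.p14, 250 bases before to 50 after each start), which matched 40 of the 47 genes. The windows were searched on both strands for the 8-letter E2F sequences TTTCCCGC, TTTCGCGC, TTTGCCGC and TTTGGCGC, for the E-box CACGTG that MYC can bind, and for CCAAT and TTTGAA, the latter known as the core of the CHR element of late cell cycle genes. E2F letters occurred in 23 of 40 members (57.5%) and in 4.0% of all 27305 genes with a window. The E-box occurred in 6 members (15.0%, against 8.8% of all genes), CCAAT in 26 (65.0% against 39.7%), and TTTGAA in 2 (5.0% against 18.2%), while TTTGAA occurred in 10 of 15 matched genes of a G2/M list described below. The following stretches of 100 bases each, 5′ to 3′ on the gene's strand, are shown for 5 genes whose levels are described in detail; capitals mark E2F letters, which can overlap each other on opposite strands.
E2F1 (chr20:33686386-33686485, minus strand): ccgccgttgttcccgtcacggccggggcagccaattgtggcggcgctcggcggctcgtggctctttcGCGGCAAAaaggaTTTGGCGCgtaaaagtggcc
CDT1 (chr16:88803689-88803788, plus strand): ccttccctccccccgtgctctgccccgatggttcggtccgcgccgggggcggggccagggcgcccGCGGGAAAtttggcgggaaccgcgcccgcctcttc
MCM6 (chr2:135876522-135876621, minus strand): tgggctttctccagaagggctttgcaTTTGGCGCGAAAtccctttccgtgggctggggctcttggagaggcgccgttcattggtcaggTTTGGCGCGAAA
PCNA (chr20:5126627-5126726, minus strand): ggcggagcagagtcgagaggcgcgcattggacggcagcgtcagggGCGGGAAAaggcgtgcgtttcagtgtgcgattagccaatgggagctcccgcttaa
POLA1 (chrX:24693734-24693833, plus strand): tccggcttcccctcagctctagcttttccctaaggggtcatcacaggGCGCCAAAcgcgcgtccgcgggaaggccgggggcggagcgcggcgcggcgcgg

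The E2F1 and CDT1 stretches end at the base before the start, and the MCM6 stretch, which holds 2 places where a match on one strand overlaps a match on the other, ends 79 bases before it. A match to these letters describes the sequence and is not evidence that a factor was bound there in these cells. Medians of the members' log2 fold changes are given with and without each motif as descriptions, with no test. For E2F letters (23 and 17 genes) they were 0.13 and 0.05 in 3D against 2D, -0.27 and -0.25 under GO-203, 0.24 and 0.24 on MUC1 silencing, and -0.79 and -0.74 on MYC silencing. For the E-box (6 and 34 genes) they were 0.39 and -0.006, -0.34 and -0.22, 0.18 and 0.25, and -0.63 and -0.79 in the same order. For CCAAT (26 and 14 genes) they were 0.06 and 0.08, -0.22 and -0.30, 0.28 and -0.02, and -0.82 and -0.70. TTTGAA was in too few members for a median.

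Summed over the 47 genes, the level was highest in vehicle-treated tet-MYCshRNA mammospheres (3686, 3782 and 3915 CPM in its 3 libraries, from lowest to highest) and lowest in the same line with DOX (2192, 2309 and 2315 CPM). Untransduced 3D cells had 3268 to 3454 CPM, 2D cells 3005 to 3069 CPM and GO-203-treated 3D cells 2675 to 2868 CPM. The tet-MUC1shRNA line had 2362 to 2390 CPM with vehicle and 2531 to 2649 CPM with DOX. None of the 7 ranges overlapped. A sum of this kind is carried by its most counted members, so the genes are described one by one below. In bulk RNA, fewer cells in S phase and less RNA per cell cannot be told apart.

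**Figure D1:**
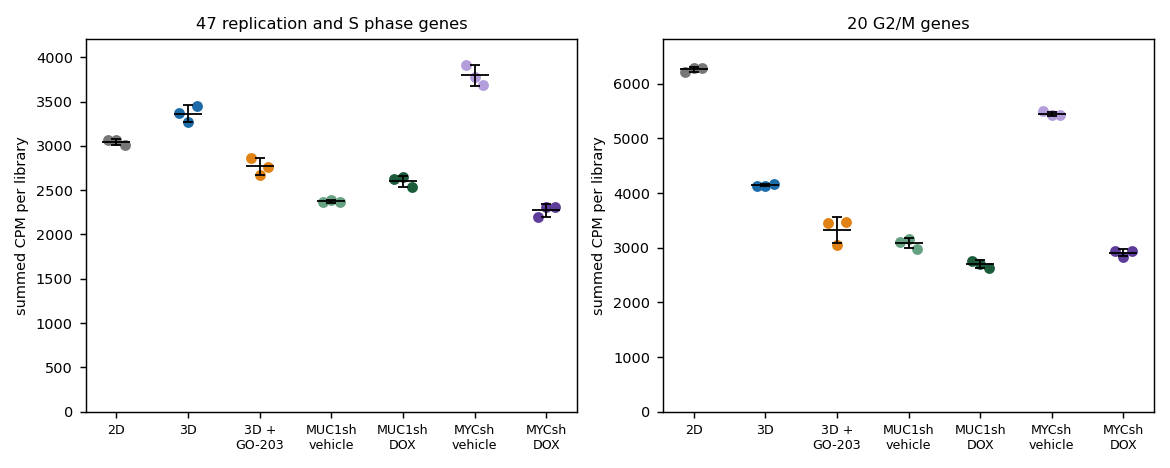
Summed level of the 47 replication and S phase genes (left) and of 20 G2/M genes (right) in CPM (vertical axes, from 0) in each of 21 libraries (points), by group, with the mean and SD of 3 libraries in black. The replication sum is highest in vehicle-treated tet-MYCshRNA mammospheres (3794 ± 115 CPM) and the G2/M sum is highest in 2D cells (6262 ± 40.0 CPM).

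Per kilobase of exon, PCNA was the most highly expressed member, from 78.1 CPM per kb in vehicle-treated tet-MUC1shRNA cells to 154 in 2D cells. MCM4 and MCM3 followed with means over the groups of 49.5 and 48.4 CPM per kb, and BRIP1 and LIG1 were lowest with 1.06 and 1.39. The 6 MCM subunits, which form the helicase ring in equal numbers, differed in RNA level: in 3D cells MCM3 stood at 59.5 ± 2.09 CPM per kb (SD, n = 3), MCM4 at 57.2 ± 2.48, MCM7 at 42.2 ± 3.20 and MCM6 at 37.1 ± 2.14, but MCM5 at 13.3 ± 0.245 and MCM2 at 13.1 ± 1.005. Levels per kilobase depend on the annotated exons (GENCODE 44), which include long alternative ends for some genes. MCM3 and MCM4 did not differ beyond their spread in 3D cells, nor did MCM2 and MCM5.

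**Figure D2:**
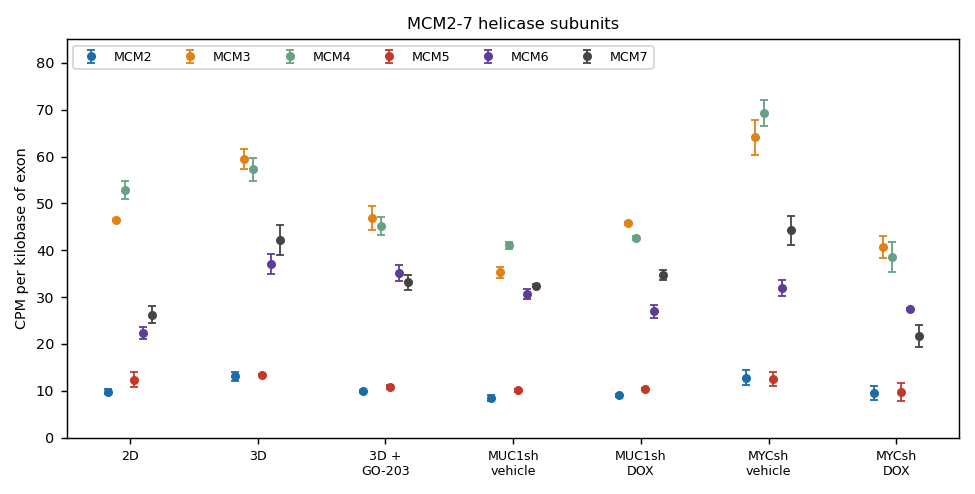
Levels of the 6 MCM helicase subunits in CPM per kilobase of exon (vertical axis, from 0) in the 7 groups, as means of 3 libraries with SD. In 3D cells MCM3 and MCM4 lie near 60 (59.5 and 57.2) and MCM2 and MCM5 near 13 (13.1 and 13.3).

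The tet lines did not start from the same level as untransduced mammospheres, which is given here as levels with no test because line, vehicle and, for tet-MYCshRNA, passage differ together. In vehicle-treated tet-MUC1shRNA cells, 41 of 47 members were below all 3 untransduced 3D libraries in all 3 libraries and 1 was above, where 35.3% of the 12540 genes with a mean of at least 1 CPM in both groups were below in this way and 36.1% above. The log2 ratio of means had a median of -0.50 over members against 0.01 over all these genes, and was lowest for the GINS subunit GINS2 (-1.79), the chromatin assembly subunit CHAF1A (-1.30) and the transcription factor E2F8 (-1.22). SLBP, which binds the ends of histone mRNAs, was the member that was higher (0.36). In vehicle-treated tet-MYCshRNA cells 28 members were above all 3D libraries and 1 below, against 30.2% and 30.3% of 12625 genes, with a median ratio of 0.16. GINS2 was counted at 12.2, 11.5 and 14.8 CPM in 3D cells, at 3.94, 3.77 and 3.42 CPM in vehicle-treated tet-MUC1shRNA cells and at 17.2, 16.3 and 15.1 CPM in vehicle-treated tet-MYCshRNA cells.

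The first comparison asked how mammosphere cells differ from monolayer cells. In 3D cells most helicase loading genes were higher, no polymerase or chromatin gene was lower, and helicase activation, clamp and loader, strand processing, fork and repair genes had members called in both directions. POLA1, the catalytic subunit of the polymerase that lays down primers, was 80.7% higher in 3D cells, CDT1 was 70.4% higher and MCM6 65.1% higher. BRIP1, a helicase that partners BRCA1, was 53.8% lower and GINS4 48.9% lower. At an adjusted p below 0.1 (edgeR's quasi-likelihood test with Benjamini-Hochberg adjustment over all genes tested), 21 members were higher, 11 were lower and 15 did not pass, against 32.0% of all 19190 genes tested called higher and 31.7% called lower. Among the 21, the rise of MSH6 (0.13, edgeR adjusted p = 0.099) was lost when any 1 of 4 of the 6 libraries was left out. It was also lost with library size alone, no filter, at least 10 counts in every library, and replicate number as a block. Groups did not overlap for 32 members, against 64.3% of all genes. With a fold change above 1.5 required as well, 6 members were higher and 3 lower, against 17.9% and 21.1% of all genes. No member passed an absolute log2 fold change of 1.5 here (6.9% of all genes higher, 9.29% lower), under GO-203 (0.498% and 0.26%) or on MUC1 silencing (5.74% and 3.08%).

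Helicase loading genes had 9 of 11 members higher in 3D cells and none lower, beside 32.0% and 31.7% of all genes. Their median log2 fold change was 0.37, where the median of all genes tested was -0.01. CDT1 (ENSG00000167513.9, chromosome 16 from 88803789 to 88809258, GRCh38) was counted at 25.8, 29.9 and 22.3 CPM in 2D cells and at 49.9, 41.3 and 42.2 CPM in 3D cells. Every 3D library was above every 2D library, and the log2 fold change was 0.77 ± 0.10 (edgeR adjusted p = 3.7e-06). MCM6 (ENSG00000076003.5, chromosome 2 from 135839626 to 135876443) had 86.5, 94.8 and 96.0 CPM in 2D cells and 158, 143 and 159 CPM in 3D cells, which gave a log2 change of 0.72 ± 0.06 (edgeR adjusted p = 4.2e-08). MCM7 had 124, 140 and 127 CPM in 2D cells and 227, 196 and 205 CPM in 3D cells, with 0.68 ± 0.07 (edgeR adjusted p = 1.8e-07). These rises in ring subunits were unequal. MCM2 rose from 44.4, 49.1 and 45.4 to 66.01, 56.7 and 62.6 CPM (log2 0.41 ± 0.07) and MCM3 from 169, 169 and 171 to 220, 208 and 223 CPM (0.35 ± 0.05). MCM4 rose from 539, 521 and 502 to 554, 546 and 592 CPM (0.11 ± 0.05, edgeR adjusted p = 0.086). This call was lost without 2D replicate 2 or 3 or 3D replicate 3 (adjusted p = 0.11, 0.24 and 0.20) and with library size alone (0.049, adjusted p = 0.45). It was also lost with no filter on low counts (adjusted p = 0.13), at least 10 counts in every library (0.17) and replicate number as a block (0.14). MCM5, at 97.7, 95.5 and 76.8 CPM in 2D cells and 97.3, 94.99 and 98.5 CPM in 3D cells, overlapped between the groups and did not pass (0.10 ± 0.08, edgeR adjusted p = 0.27). Without 2D replicate 1 it passed as a rise (0.17, adjusted p = 0.079).

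Geminin, the inhibitor of CDT1, rose as well, from 31.3, 30.7 and 29.7 CPM in 2D cells to 37.9, 40.9 and 40.2 CPM in 3D cells (log2 0.37 ± 0.06, edgeR adjusted p = 1.0e-04). CDC6, the loader ATPase that works with CDT1, rose by 0.42 ± 0.07. ORC1, the largest subunit of the origin recognition complex, rose by 0.15 ± 0.06 (edgeR adjusted p = 0.060), which was lost without 2D replicate 3 or 3D replicate 2, with library size alone (0.085, adjusted p = 0.28) and with no filter (adjusted p = 0.12), and ORC6 did not pass (-0.02 ± 0.08).

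Among polymerases, 3 of 6 members were higher in 3D cells and none lower, beside 32.0% of all genes called higher and 31.7% lower. POLA1 (ENSG00000101868.13, chromosome X from 24693873 to 24996986) was counted at 64.9, 58.7 and 65.8 CPM in 2D cells and at 117, 115 and 112 CPM in 3D cells. The groups lay far apart, with a log2 fold change of 0.85 ± 0.06 (edgeR adjusted p = 5.2e-09). The polymerase delta subunits POLD1 and POLD3 rose by 0.62 ± 0.08 and 0.45 ± 0.06, while the polymerase epsilon subunits POLE (-0.03 ± 0.06) and POLE2 (-0.07 ± 0.07) and the primase subunit PRIM1 (-0.14 ± 0.08) did not pass. POLD1 shares 8.6% of its exon bases, PRIM1 15.1% and the fork gene TIPIN 21.1%, with a same-strand neighbour, so their counts may depend on how such reads were assigned.

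The 11 genes that fell in 3D cells were 4 repair genes, 2 helicase activation genes, 2 clamp and loader genes, and 1 each of the E2F, fork and strand processing genes. BRIP1 (ENSG00000136492.10, chromosome 17 from 61679139 to 61863559) was counted at 39.4, 39.5 and 39.3 CPM in 2D cells and at 16.8, 20.1 and 18.0 CPM in 3D cells, which gave a log2 change of -1.11 ± 0.08 (edgeR adjusted p = 2.6e-09). GINS4 had 46.1, 42.8 and 44.8 CPM in 2D cells and 23.7, 22.0 and 22.9 CPM in 3D cells, with -0.97 ± 0.07 (edgeR adjusted p = 2.1e-09). The other 3 GINS subunits, which form a complex with GINS4 in equal numbers, overlapped between the groups and did not pass, at -0.08 ± 0.07 (GINS1), -0.01 ± 0.10 (GINS2) and -0.09 ± 0.09 (GINS3). E2F8, a repressor among the E2F factors, had 27.5, 27.3 and 27.6 CPM in 2D cells and 17.4, 17.1 and 17.7 CPM in 3D cells (log2 -0.66 ± 0.07, edgeR adjusted p = 6.0e-07). E2F1, an activator, did not pass, at 33.7, 34.9 and 30.9 CPM in 2D cells and 35.0, 31.6 and 32.0 CPM in 3D cells (-0.02 ± 0.07, edgeR adjusted p = 0.85).

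CDC7, the kinase that fires origins, had 54.0, 60.4 and 63.9 CPM in 2D cells and 39.3, 38.7 and 42.4 CPM in 3D cells. CLSPN (claspin), a fork protein needed to activate the checkpoint kinase CHEK1, had 124, 115 and 122 CPM in 2D cells and 86.8, 83.7 and 80.5 CPM in 3D cells. DSCC1, part of an alternative clamp loader, had 37.5, 33.1 and 34.8 CPM in 2D cells and 26.8, 26.6 and 28.8 CPM in 3D cells. In each of these 3 genes every 3D library was below every 2D library, with log2 fold changes of -0.57 ± 0.07, -0.53 ± 0.06 and -0.36 ± 0.07. The recombination genes followed with smaller falls: RAD51AP1 from 36.4, 38.6 and 36.6 to 26.3, 28.1 and 32.5 CPM (-0.36 ± 0.08), BRCA1 from 91.1, 86.7 and 88.4 to 68.8, 71.3 and 74.1 CPM (-0.32 ± 0.06) and the exonuclease EXO1 from 77.7, 75.5 and 75.8 to 65.4, 67.4 and 71.4 CPM (-0.17 ± 0.06). LIG1, the ligase that joins lagging strand fragments, went from 21.3, 22.9 and 22.4 to 20.4, 19.6 and 17.3 CPM (-0.22 ± 0.08, edgeR adjusted p = 0.030). PCNA, the sliding clamp, went from 215, 222 and 211 to 190, 196 and 208 CPM (-0.13 ± 0.05, edgeR adjusted p = 0.053). The calls for LIG1, PCNA and EXO1 were each lost when at least 1 library was left out, LIG1 without 2D replicate 2 or 3D replicate 3, PCNA without 2D replicate 2 or 3D replicate 1 or 2 (and with no filter, adjusted p = 0.13), and EXO1 without 3D replicate 1. By contrast UNG, which removes uracil from DNA, rose by 0.60 ± 0.06, and the single-strand binding subunit RPA2 and the flap nuclease FEN1 rose by 0.50 ± 0.08 and 0.22 ± 0.06.

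**Figure D3:**
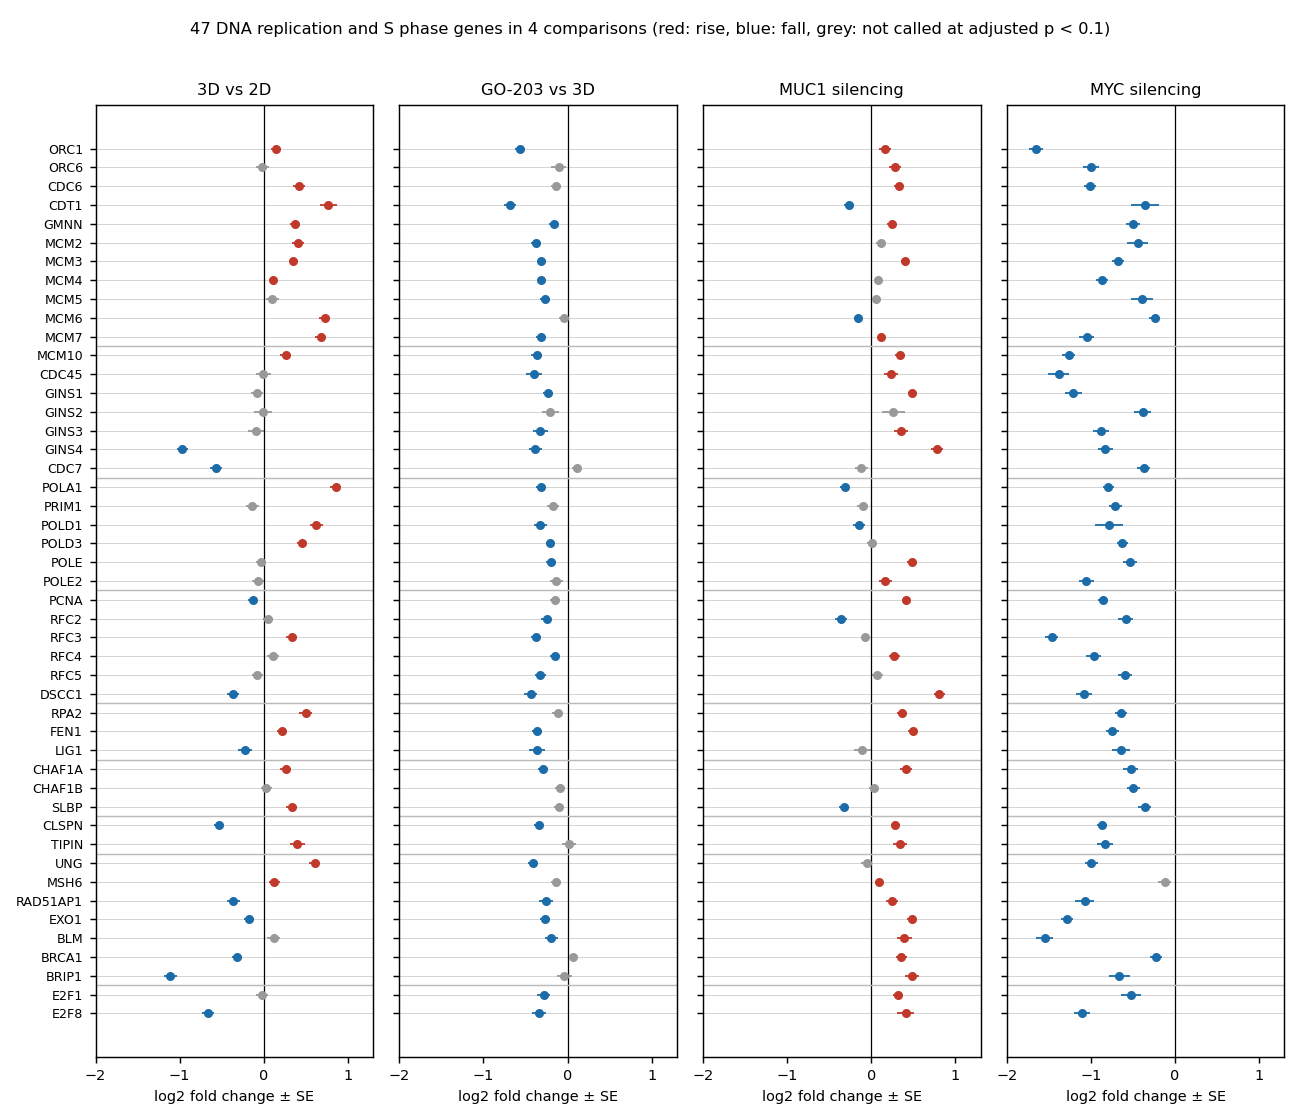
Log2 fold change with SE (horizontal axes) of each of the 47 genes (listed by role from helicase loading at the top to E2F factors at the bottom) in the 4 comparisons, with rises in red, falls in blue and genes that did not pass adjusted p below 0.1 in grey. Rises and falls are mixed in 3D against 2D (21 and 11), all calls are falls under GO-203 (32) and on MYC silencing (46), and most are rises on MUC1 silencing (29, with 6 falls).

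Genes outside the 47 were counted by list, with no test between lists, and are read beside the 32.0% and 31.7% of all genes called higher and lower in 3D cells. Of 38 other replication genes 11 were higher (28.9%) and 8 lower (21.1%), no more than among all genes (median 0.01), with TOP1, the topoisomerase that relaxes DNA ahead of the fork, at 1.41 ± 0.06 and the histone chaperone ASF1A at -1.35 ± 0.07. Of 25 other E2F and S phase genes 8 were higher and 10 lower (median -0.05), with the repressive factors E2F4 at 1.10 ± 0.07 and E2F7 at -1.04 ± 0.06. Of 20 other repair genes 10 were higher and 4 lower (median 0.11), with RMI2, a partner of BLM, at 1.06 ± 0.10. Of 20 G2/M genes, which act in mitosis, 17 (85%) were lower, none was higher, and the median was -0.51, with the kinetochore motor CENPE at -1.28 ± 0.06. Their summed level fell from 6216 to 6289 CPM in 2D cells to 4132 to 4167 CPM in 3D cells, while the sum of the 47 genes was higher in every 3D library than in every 2D library. RB1, which holds back E2F factors, was counted at 37.6, 40.2 and 44.6 CPM in 2D cells and 24.8, 23.7 and 30.4 CPM in 3D cells (-0.64 ± 0.09, edgeR adjusted p = 1.4e-05).

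The second comparison asked what blocking MUC1-C with GO-203 does to 3D cells, and it uses the same 3D libraries as the first. Under GO-203 the calls were small falls in every role group: 32 members fell, none rose and 15 did not pass, against 12.9% of all 18488 genes called lower and 11.1% called higher. No rise had an unadjusted p below 0.05 either, and DESeq2 called 0 rises. The median over members was -0.26 where that of all genes tested was 0.02. CDT1 was 37.8% lower and ORC1 32.4% lower, and no member was lowered by as much as 50%. With a fold change above 1.5 required as well, 1 member (CDT1) was lower, against 2.02% of all genes, and none was higher, against 3.61%.

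CDT1 was counted at 27.0, 28.1 and 26.1 CPM under GO-203, all below the 3D libraries (49.9, 41.3 and 42.2 CPM), with a log2 fold change of -0.69 ± 0.07 (edgeR adjusted p = 5.2e-07). Under GO-203 its level was within the range of 2D cells. ORC1 (ENSG00000085840.13, chromosome 1 from 52372829 to 52404423) had 48.4, 52.8 and 49.8 CPM in 3D cells and 35.4, 31.2 and 33.4 CPM under GO-203, with -0.56 ± 0.06 (edgeR adjusted p = 5.9e-07). DSCC1 had 26.8, 26.6 and 28.8 CPM in 3D cells and 21.1, 17.4 and 20.9 CPM under GO-203, with -0.44 ± 0.08 (edgeR adjusted p = 2.5e-04). Groups did not overlap for 34 members (33 of them lower under GO-203), against 33.7% of all genes.

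Of the MCM ring, 5 of 6 subunits fell under GO-203. MCM2 went to 48.5, 44.9 and 46.2 CPM (log2 -0.38 ± 0.06), MCM3 to 181, 169 and 163 CPM (-0.31 ± 0.06) and MCM4 to 466, 436 and 433 CPM (-0.31 ± 0.05). MCM5 went to 82.3, 78.7 and 76.0 CPM (-0.26 ± 0.06) and MCM7 to 170, 169 and 156 CPM (-0.31 ± 0.06). All of these were below every 3D library. MCM6 was the subunit that did not pass, with 148, 138 and 151 CPM under GO-203 overlapping the 3D libraries (-0.04 ± 0.06, edgeR adjusted p = 0.69).

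Geminin had 35.5, 32.3 and 36.2 CPM (-0.16 ± 0.06, edgeR adjusted p = 0.071), a fall lost when 3D replicate 2 or 3 or GO-203 replicate 1 or 2 was left out (adjusted p = 0.204, 0.12, 0.135 and 0.207) and with no filter (0.135). PCNA, with 190, 161 and 175 CPM, overlapped the 3D libraries and did not pass (-0.15 ± 0.06, edgeR adjusted p = 0.11). It passed as a fall with DESeq2 (adjusted p = 0.057), with at least 10 counts in every library (0.095) and with all 21 libraries in one fit (0.049). The same held with replicate number as a block (0.064) and without GO-203 replicate 1 (0.052). E2F1 had 28.3, 27.5 and 23.5 CPM (-0.28 ± 0.08, edgeR adjusted p = 0.012) and E2F8 fell by 0.34 ± 0.08. UNG fell by 0.41 ± 0.06, CDC45 by 0.40 ± 0.10, GINS4 by 0.38 ± 0.08, RFC3 by 0.37 ± 0.06 and MCM10 by 0.37 ± 0.06. The repair genes BRCA1 (0.07 ± 0.06) and BRIP1 (-0.04 ± 0.09), the fork protein TIPIN (0.02 ± 0.08) and CDC7 (0.11 ± 0.06) did not pass.

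Among the other lists under GO-203, which are read beside 12.9% of all genes called lower and 11.1% higher, 15 of 38 other replication genes fell and 2 rose, with the histone chaperone ASF1B at -0.50 ± 0.08 and MCM9, a helicase of recombination repair, at 0.42 ± 0.09. Of 25 other E2F and S phase genes 12 fell and 1 rose. The largest fall was TYMS, which makes thymidylate for DNA (-0.64 ± 0.10), and the gene that rose was RB1, with 34.8, 30.1 and 38.1 CPM against 24.8, 23.7 and 30.4 in 3D cells (0.42 ± 0.08, edgeR adjusted p = 0.0011). Of 20 other repair genes 6 fell and 2 rose, with RMI2 at -0.27 ± 0.08. Of 20 G2/M genes 17 fell and none rose, with a median of -0.29, and the largest fall was CDC20, the activator of the anaphase-promoting complex, at -0.44 ± 0.07. The counts of falls thus stood at 68.1% of the 47 genes and 85% of the G2/M genes, both in the same libraries.

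The third comparison asked what silencing MUC1 does in mammospheres. Here most members rose: 29 were higher with DOX, 6 were lower and 12 did not pass, against 30.7% of all 19220 genes called higher and 31.6% called lower. DSCC1 was 74.98% higher and GINS4 71.8% higher, and these were the only members that rose by more than 1.5-fold, against 17.6% of all genes, while none fell by as much, against 14.6%. The median over members was 0.25 against 0.02 over all genes. Scaling by library size alone, without TMM factors, moved the median of all genes up by 0.17 and the split of all calls from 49.3% to 64.4% higher. With that scaling 37 members were higher and 3 lower. Groups did not overlap for 39 members, against 62.8% of all genes.

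DSCC1 was counted at 17.1, 19.0 and 19.2 CPM with vehicle and 32.9, 32.0 and 30.4 CPM with DOX, with a log2 fold change of 0.81 ± 0.07 (edgeR adjusted p = 1.8e-09). GINS4 had 13.3, 15.1 and 15.0 CPM with vehicle and 23.6, 25.5 and 24.4 CPM with DOX, with 0.78 ± 0.07 (edgeR adjusted p = 1.1e-08). FEN1 (ENSG00000168496.4, chromosome 11 from 61792911 to 61797238) had 59.2, 56.4 and 54.4 CPM with vehicle and 80.8, 82.0 and 72.8 CPM with DOX, with 0.50 ± 0.05 (edgeR adjusted p = 9.0e-08). In all 3 genes every DOX library was above every vehicle library. Even so, the DOX level of GINS4 remained below that of 2D cells (42.8 to 46.1 CPM) and close to that of untransduced 3D cells (22.0 to 23.7 CPM).

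Helicase activation had 5 of 7 members higher and none lower, both E2F factors and both fork proteins rose, and 6 of 7 repair genes rose, beside 30.7% of all genes called higher in this comparison. Groups of 2 to 7 genes were described by these counts and not compared by a test. E2F1 had 24.9, 28.0 and 26.3 CPM with vehicle and 32.2, 32.5 and 32.4 CPM with DOX (0.32 ± 0.06, edgeR adjusted p = 2.1e-04), and E2F8 rose by 0.41 ± 0.10. PCNA had 106, 108 and 114 CPM with vehicle and 147, 144 and 139 CPM with DOX (0.41 ± 0.04, edgeR adjusted p = 9.3e-08). Geminin rose from 36.0, 37.4 and 37.95 to 43.4, 42.9 and 43.7 CPM (0.24 ± 0.05). Among the repair genes, BRIP1 rose by 0.48 ± 0.08, EXO1 by 0.48 ± 0.05, BLM, the helicase lost in Bloom syndrome, by 0.39 ± 0.09, BRCA1 by 0.35 ± 0.06 and RAD51AP1 by 0.24 ± 0.07. The smallest value was that of MSH6 (0.10 ± 0.05, edgeR adjusted p = 0.088), whose call was lost without any 1 of 5 of the 6 libraries (DOX replicate 3 was the exception). It was also lost with no filter on low counts, all 21 libraries in one fit and replicate number as a block (adjusted p = 0.20, 0.40 and 0.103).

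The MCM subunits had different values on MUC1 silencing. MCM3 rose from 134, 126 and 126 to 167, 167 and 165 CPM (0.40 ± 0.04) and MCM7 from 159, 163 and 161 to 176, 174 and 167 CPM (0.12 ± 0.04, edgeR adjusted p = 0.016), a call that was lost with all 21 libraries in one fit (0.098, adjusted p = 0.29). MCM2, with 42.0, 40.9 and 37.0 CPM against 43.8, 42.9 and 40.9, MCM4, with 398, 413 and 403 CPM against 416, 424 and 418, and MCM5, with 75.8, 71.4 and 73.9 CPM against 76.7, 75.4 and 74.6, did not pass (0.12 ± 0.06, 0.07 ± 0.04 and 0.06 ± 0.05). These 3 passed as rises with library size alone (0.28, 0.24 and 0.23) and with at least 10 counts in every library (0.17, 0.13 and 0.11). MCM6 was lower with DOX, at 127, 123 and 131 CPM with vehicle and 114, 115 and 105 CPM with DOX (-0.16 ± 0.05, edgeR adjusted p = 0.0049), but was 0.003 with library size alone.

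The members that fell on MUC1 silencing were few and came from several roles. RFC2, a clamp loader subunit (ENSG00000049541.11, chromosome 7 from 74231499 to 74254458), had 30.4, 29.6 and 26.1 CPM with vehicle and 20.3, 23.7 and 21.9 CPM with DOX, with -0.36 ± 0.07 (edgeR adjusted p = 3.3e-04). SLBP had 72.6, 80.1 and 75.3 CPM with vehicle and 59.2, 62.1 and 57.5 CPM with DOX, with -0.33 ± 0.05 (edgeR adjusted p = 1.7e-05). POLA1 had 70.5, 68.3 and 67.0 CPM with vehicle and 52.3, 57.4 and 52.8 CPM with DOX, with -0.32 ± 0.05 (edgeR adjusted p = 2.5e-05). Thus the polymerase subunit that was highest among the rises in 3D cells was among the falls here. CDT1 had 50.5, 44.3 and 43.7 CPM with vehicle and 38.7, 39.8 and 34.8 CPM with DOX (-0.26 ± 0.06, edgeR adjusted p = 0.0014), a call lost with library size alone (-0.098, adjusted p = 0.17). POLD1 overlapped between the groups, with 29.9, 26.3 and 25.6 CPM against 22.5, 25.9 and 24.0, and its call (-0.15 ± 0.07, edgeR adjusted p = 0.090) was lost without vehicle replicate 1, DOX replicate 1 or DOX replicate 3, with DESeq2 (adjusted p = 0.13), RLE factors, no filter, at least 10 counts in every library and all 21 libraries in one fit, and turned to 0.02 with library size alone.

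The other lists are read beside 30.7% of all genes called higher and 31.6% lower on MUC1 silencing. Of 37 other replication genes tested 19 rose and 6 fell, with ASF1B at 0.87 ± 0.07 and RFC1, the large subunit of the clamp loader, at -0.67 ± 0.05. Of 25 other E2F and S phase genes 14 rose and 8 fell, with the E2F partner TFDP2 at 0.88 ± 0.05 and the RB1 relative RBL1 at -1.06 ± 0.05. Of 20 other repair genes 13 rose and 2 fell, with BRCA2 at 0.75 ± 0.06 and CHEK1 at -0.23 ± 0.05. Of 20 G2/M genes 5 were higher and 11 lower, with a median of -0.18. Cyclin CCNB2 was at -0.61 ± 0.06 and the kinetochore protein CENPF at 0.38 ± 0.04. RB1 did not pass, with 24.0, 20.8 and 20.7 CPM with vehicle and 20.3, 21.5 and 19.0 CPM with DOX (-0.08 ± 0.07, edgeR adjusted p = 0.36).

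The fourth comparison asked what silencing MYC does in mammospheres. With DOX in the tet-MYCshRNA line 46 of the 47 genes fell and none rose, against 28.1% of all 19951 genes called lower and 30.3% called higher. All 47 fitted log2 fold changes were below 0, as were those of 9878 of the 19951 genes, and DESeq2 called 46 falls and 0 rises. The median log2 fold change was -0.79 over members, the lowest of the 4 comparisons, against 0.01 over all genes. With a fold change above 1.5 required as well, 33 members were lower, against 17.1% of all genes, and none higher, against 20.6%. ORC1 fell by 68.2%, BLM fell by 65.9% and RFC3 fell by 63.8%. The exception was the mismatch repair gene MSH6, with 102, 105 and 103 CPM with vehicle and 105, 89.0 and 94.5 CPM with DOX (-0.12 ± 0.07, edgeR adjusted p = 0.19).

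ORC1 was counted at 56.2, 51.2 and 51.7 CPM with vehicle and 15.7, 17.6 and 18.1 CPM with DOX, a log2 fold change of -1.65 ± 0.09 (edgeR adjusted p = 1.7e-07). BLM (ENSG00000197299.13, chromosome 15 from 90717346 to 90816166) had 32.9, 33.5 and 29.8 CPM with vehicle and 11.8, 10.0 and 11.5 CPM with DOX, with -1.55 ± 0.10 (edgeR adjusted p = 7.0e-07). RFC3 (ENSG00000133119.13, chromosome 13 from 33818069 to 33966558) had 112, 114 and 113 CPM with vehicle and 45.7, 38.3 and 40.4 CPM with DOX, with -1.47 ± 0.08 (edgeR adjusted p = 1.9e-07). In each, the DOX libraries lay below all other libraries of that line with no overlap. A log2 fold change below -1.5 was reached by 2 members (ORC1 and BLM), against 3.39% of all genes (7.06% passed in the other direction), with RFC3 just outside. Groups did not overlap for 45 members, against 59.7% of all genes.

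Every role group had falls and no rises on MYC silencing, beside 28.1% of all genes called lower and 30.3% higher. All 11 helicase loading genes were lower, from ORC1 to MCM6 (-0.24 ± 0.06), and all 7 helicase activation genes, led by CDC45 (-1.38 ± 0.12), MCM10 (-1.27 ± 0.07) and GINS1 (-1.21 ± 0.10). The 6 polymerase genes ranged from -1.05 (POLE2) to -0.54 (POLE), the 6 clamp and loader genes from RFC3 to -0.59 (RFC2), and the 3 chromatin genes, CHAF1A, CHAF1B and SLBP, lay between -0.52 and -0.36. Repair genes spread most, from BLM and EXO1 (-1.28 ± 0.08) to BRCA1 (-0.23 ± 0.07) and MSH6, which did not pass.

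Within the MCM ring the sizes differed again. MCM7 fell from 234, 222 and 202.7 to 94.2, 115 and 113 CPM (-1.05 ± 0.09), MCM4 from 714, 668 and 667 to 343, 404 and 391.9 CPM (-0.87 ± 0.07) and MCM3 from 250, 225 and 226 to 138, 152 and 155 CPM (-0.68 ± 0.07). MCM2 fell from 67.0, 62.0 and 52.5 to 36.7, 50.2 and 48.4 CPM (-0.44 ± 0.13, edgeR adjusted p = 0.013) and MCM5 from 102, 92.6 and 80.5 to 55.1, 80.3 and 77.0 CPM (-0.39 ± 0.13, edgeR adjusted p = 0.030), which was lost without vehicle replicate 1. MCM6 moved least, from 140, 132 and 125 to 114, 114 and 113 CPM (edgeR adjusted p = 0.0076).

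PCNA fell from 219, 211 and 200 to 115, 121 and 117 CPM (-0.86 ± 0.06) and geminin from 38.2, 39.6 and 39.9 to 30.0, 27.5 and 27.0 CPM (-0.50 ± 0.08). E2F1 fell from 38.01, 37.9 and 34.0 to 20.8, 28.6 and 27.9 CPM (-0.53 ± 0.12, edgeR adjusted p = 0.0036), and E2F8 by 1.11 ± 0.09. CDT1 was the least certain of the 46: it had 46.6, 42.4 and 40.2 CPM with vehicle and 24.1, 42.1 and 35.9 CPM with DOX, so the groups overlapped (-0.36 ± 0.16, edgeR adjusted p = 0.093). The low value was replicate 1, and the call was lost without it (-0.17, adjusted p = 0.13) and without 4 of the other 5 libraries. Without replicate 1 of the DOX group 46 members were called lower, with MSH6 (-0.20, adjusted p = 0.008) in place of CDT1.

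The other lists are read beside 28.1% of all genes called lower and 30.3% higher on MYC silencing. Of 38 other replication genes 28 fell and 2 rose (median -0.40), with RNASEH2A, a subunit of an RNase that removes RNA from DNA, at -2.16 ± 0.50 from a level of only 0.462 CPM, and the small polymerase delta subunit POLD4 at 0.73 ± 0.20 from 1.19 CPM. Of 25 other E2F and S phase genes 20 fell and 3 rose (median -0.69), with E2F5 at -1.97 ± 0.15 and TFDP2 at 0.51 ± 0.07. Of 20 other repair genes 16 fell and 2 rose (median -0.37), with the recombination gene XRCC2 at -1.07 ± 0.10 and the mismatch repair gene PMS2 at 0.57 ± 0.07. G2/M genes had 19 of 20 lower and a median of -1.02, with the checkpoint kinase BUB1B at -1.52 ± 0.08. RB1 rose from 20.9, 22.1 and 22.2 to 32.7, 24.97 and 24.6 CPM (0.32 ± 0.12, edgeR adjusted p = 0.046), and its highest value was in replicate 1, the library that stood apart.

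**Figure D4:**
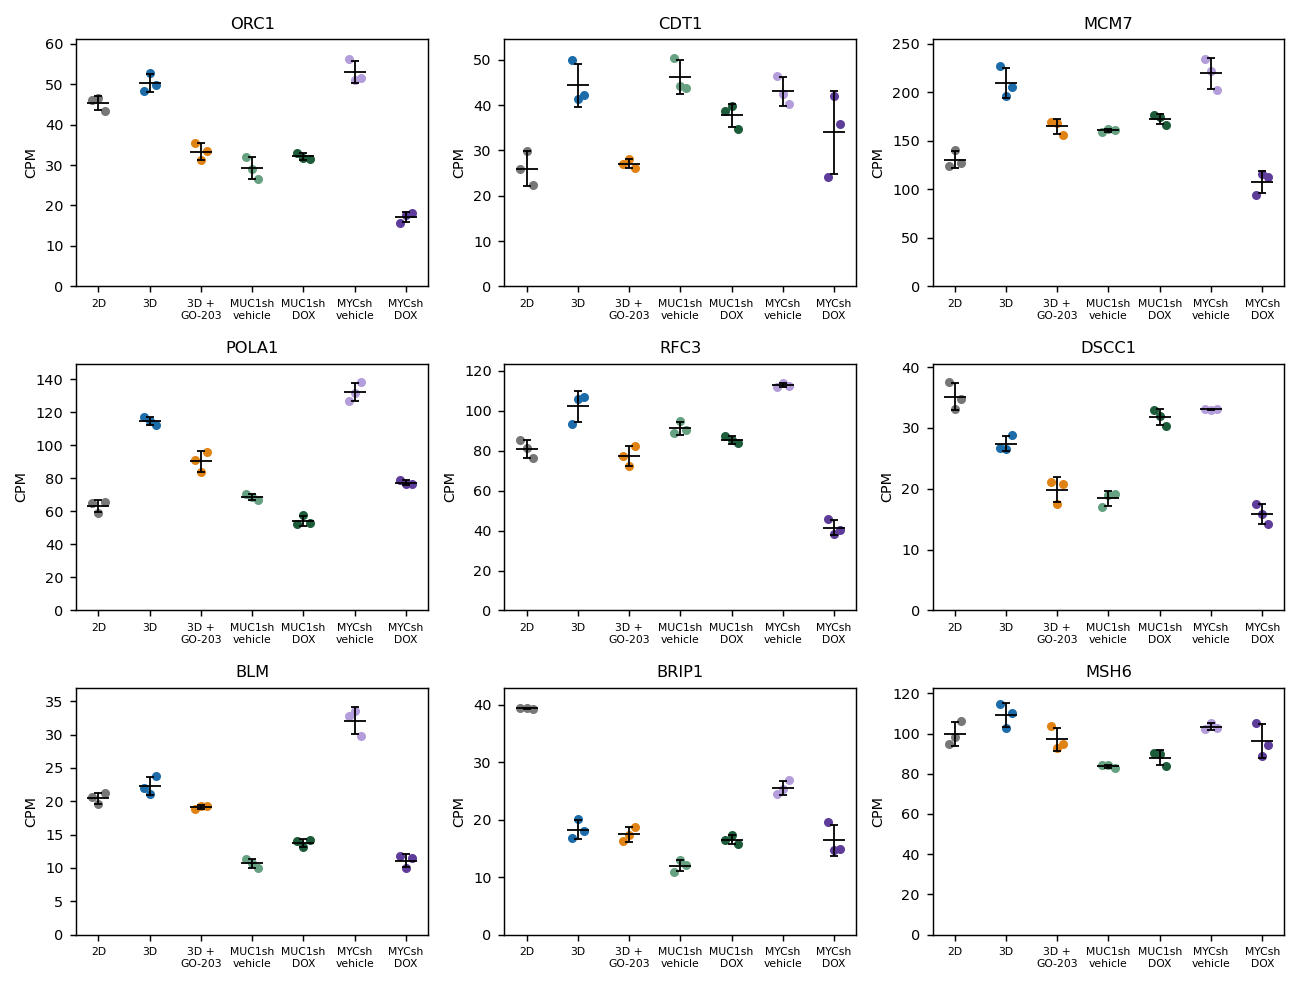
Levels in CPM (vertical axes, from 0) of 9 of the 47 genes in each library (points) by group, with the mean and SD of 3 libraries in black. ORC1, RFC3 and BLM are lowest or near their lowest with DOX in the tet-MYCshRNA line, DSCC1 rises with DOX in the tet-MUC1shRNA line and falls in the tet-MYCshRNA line, and CDT1 replicate 1 with DOX (24.1 CPM) lies apart from the other 2 libraries of its group.

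The difference between the effects of MUC1 and MYC silencing was tested directly, as an interaction over 12 libraries. Target, line, passage and possibly time on DOX differ together between these libraries and cannot be told apart. Before DOX, 42 of 47 members were lower in all 3 vehicle-treated tet-MUC1shRNA libraries than in all 3 of the tet-MYCshRNA line and 1 was higher, against 37.3% and 39.6% of 12524 genes, with a median log2 ratio of -0.73 over members and 0.02 over all these genes. The effect was higher for MUC1 silencing in 42 of 47 members and lower in none, against 26.0% of all 21585 genes called higher and 26.9% called lower, with a median difference of 1.002 in log2 fold change. No lower value had an unadjusted p below 0.05, and DESeq2 called 43 higher and 0 lower. Of the 42, 28 were called in opposite directions, higher on MUC1 silencing and lower on MYC silencing, against 8.11% of the 18198 genes tested in both. Among these 28, the rises of POLE2, ORC1 and CDC45 on MUC1 silencing were each lost without at least 1 library. With all 21 libraries in one fit the rises of POLE2, ORC1 and MCM7 were lost (adjusted p = 0.13, 0.14 and 0.29). The largest differences were 1.93 ± 0.13 for BLM (edgeR adjusted p = 1.1e-09), 1.87 ± 0.12 for DSCC1 and 1.80 ± 0.12 for ORC1, followed by EXO1 (1.75 ± 0.09) and GINS1 (1.68 ± 0.12). The 6 genes that fell on MUC1 silencing fell on MYC silencing as well. In the latter comparison 46 of the 47 members and 28.1% of all genes were called lower. The difference passed for POLA1 and POLD1 among the 6. The falls of CDT1, MCM6 and POLD1 on MUC1 silencing were lost with library size alone. That of CDT1 on MYC silencing was lost when any 1 of 5 of the 6 libraries was left out. For SLBP (0.02 ± 0.09), MCM6 (0.07 ± 0.08), CDT1 (0.08 ± 0.19), RFC2 (0.21 ± 0.13) and CDC7 (0.24 ± 0.12) no difference was detected, and these SEs leave room for one. With library size alone the difference passed as higher for SLBP (0.223), MCM6 (0.269), RFC2 (0.42) and CDC7 (0.445). That of CDC7 also passed with DESeq2 (adjusted p = 0.073), and those of CDC7 and RFC2 with no filter (0.057 and 0.093).

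**Figure D5:**
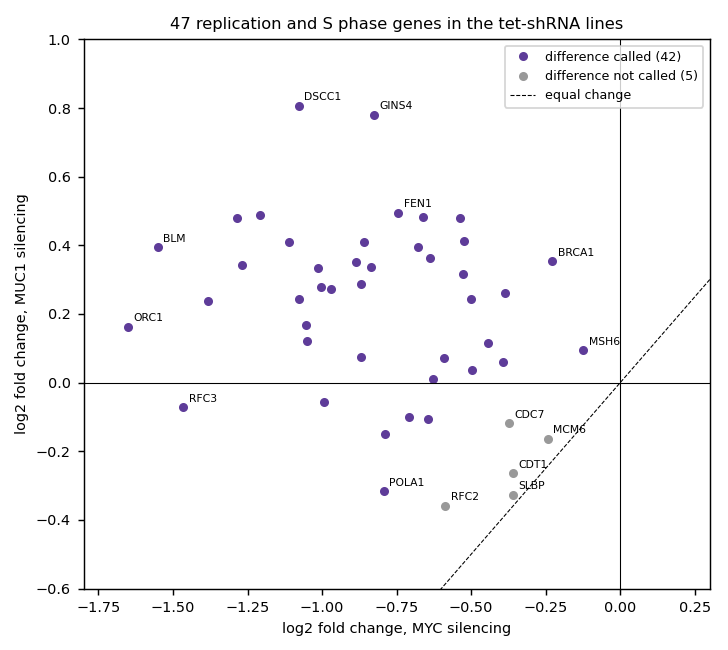
Log2 fold change on MUC1 silencing (vertical axis) against that on MYC silencing (horizontal axis) for the 47 genes, in purple where the difference between the effects passed adjusted p below 0.1 (42 genes) and in grey where it did not (5 genes), with the line of equal change dashed. All 47 genes lie left of 0 on the horizontal axis, and 36 lie above 0 on the vertical axis.

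GO-203 and MUC1 silencing, which act on the same target by a peptide and by an shRNA, went with different changes of the 47 genes. The effect of GO-203 was lower than that of MUC1 silencing in 38 members and higher in 2 (CDC7 and SLBP), against 20.8% and 24.1% of all 20829 genes. Neither of the higher calls held with library size alone (CDC7 0.068 and SLBP 0.063, adjusted p = 0.64 and 0.58) or with no filter on low counts (0.27 and 0.22), and that of CDC7 was also lost with DESeq2 (0.14) and without any 1 of 6 libraries (3D replicates 1 and 2, GO-203 replicate 1, vehicle replicate 3, and DOX replicates 1 and 3), and that of SLBP without GO-203 replicate 3 or vehicle replicate 2 (0.10 and 0.13). The largest differences were DSCC1 (-1.25 ± 0.10), GINS4 (-1.17 ± 0.10) and FEN1 (-0.86 ± 0.08). Of the 32 genes that fell under GO-203, 20 rose on MUC1 silencing, where 3.77% of the 17526 genes tested in both did so. Among these 20, the GO-203 falls of GMNN, RFC4, BLM, POLE and RAD51AP1 were each lost without at least 1 library. So were the rises of ORC1 and CDC45 on MUC1 silencing. With all 21 libraries in one fit the rises of ORC1 and MCM7 were lost. CDT1, POLA1, POLD1 and RFC2 (4 genes) fell both under GO-203 and on MUC1 silencing, against 6.88% of the 17526 genes. The falls of CDT1 and POLD1 on MUC1 silencing were lost with library size alone. All 32 fell on MYC silencing too, where 46 of 47 did so, against 8.36% of 17977 genes that fell in both. The log2 fold change under GO-203 was higher than that on MYC silencing in 37 members, among them genes that did not pass under GO-203, against 19.8% of all 21076 genes. None went the other way (22.8% of all genes), at an unadjusted p below 0.05 or with DESeq2. These comparisons set wild-type mammospheres beside shRNA lines that differ in level before treatment, as described above. Agent, exposure to DOX, line, possibly treatment time and, for tet-MYCshRNA cells, passage differ together and cannot be told apart.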

How the data were processed

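Total RNA from BT-549 cultures in triplicate was made into TruSeq stranded, paired-end libraries, aligned by the authors to GRCh38 with STAR (2.7.3a per the labels) and assigned to genes with featureCounts. The deposited values are raw counts per gene, not normalized. The annotation release, strand setting and handling of multi-mapping reads are not given in the sources used here. Empty cells, in 11448 genes but none of the 47, were read as 0.

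In R 4.3.3, each pair of groups was fitted on its own 6 libraries with edgeR 4.0.16: filterByExpr, TMM factors and the quasi-likelihood test with Benjamini-Hochberg adjustment over all genes, called below 0.1. Differences between effects were fitted over 12 libraries. P-values measure the spread between the 3 cultures of a group, all of 1 cell line. All replicate pairs differed by more than sampling noise. Symbols came from GENCODE 44. The fit of MUC1 silencing and that of the difference between MUC1 and MYC silencing were tested on simulated data, and the other fits were not.

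The genes, gene lists and tests were chosen with earlier results of these data known. All 47 genes could be named; values per library are given for the 3 largest rises and falls per comparison among called genes without overlap, MCM2 to MCM7, CDT1, GMNN, PCNA, E2F1, RB1 and called genes whose sign differs from most, and of each other list the called gene of largest change per direction. Other settings tried were the DESeq2 tool (1.42.0), RLE factors, scaling by library size without TMM, a minimum of 1 count in total or of 10 in each library, a joint fit of the 21 libraries, replicate number as a block, a threshold of 0.05, and leaving out single libraries. Values of some genes of the other lists are not reported here.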

Additional observations from a re-analysis of the deposited data

Results flagged for a closer look

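The change with DOX differed between the tet-MUC1shRNA and tet-MYCshRNA lines, by a test of the difference itself, in 42 of the 47 genes, all with the higher value on MUC1 silencing (26.0% of all genes were called higher), and the 5 with the largest differences in log2 fold change were BLM (1.93), DSCC1 (1.87), ORC1 (1.80), EXO1 (1.75) and GINS1 (1.68). The effect of GO-203 was lower than that of MUC1 silencing in 38 of the 47 genes and higher in 2 (20.8% and 24.1% of all genes). The effect of GO-203 was higher than that of MYC silencing in 37 of the 47 genes (19.8% of all genes). Agent or target, line, possibly treatment time, for GO-203 exposure to DOX and, for tet-MYCshRNA cells, passage differ together in these comparisons and cannot be told apart. Groups of 3 libraries were too small to test single libraries as outliers.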

How the results depend on the processing

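Of 4740 values of single genes recomputed under an alternative, 4494 kept their direction and their side of the threshold, 153 lost the call, 53 gained one and 40 changed sign. The counts of falls under GO-203 (28 to 35 over the alternatives) and on MYC silencing (44 to 46) moved little. Library size alone moved the members' median from 0.10 to 0.042 in 3D against 2D, from 0.25 to 0.41 on MUC1 silencing, with 3 falls in place of 6, and from -0.79 to -0.82 on MYC silencing. It turned the sign of RFC2 (-0.007) and CHAF1B (-0.028) in 3D against 2D and of POLD1 (0.018), MCM6 (0.003), UNG (0.109), CDC7 (0.047), LIG1 (0.059), RFC3 (0.094) and PRIM1 (0.065) on MUC1 silencing. At least 10 counts in every library gave a median of 0.30 on MUC1 silencing, and no filter gave -0.82 on MYC silencing. All 21 libraries in one fit turned TIPIN under GO-203 (-0.012) and POLD3 on MUC1 silencing (-0.010). The 2 genes higher under GO-203 than on MUC1 silencing became 1 with DESeq2 or adjusted p below 0.05 and 0 with library size alone or no filter, and no filter gave 1 gene lower under GO-203 than on MYC silencing where the count reported is 0. Scaling by library size alone moved the median of all genes on MUC1 silencing by 0.17, and the split of all calls from 49.3% to 64.4% higher. The other causes were not tested.

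Leaving out each library in turn gave medians of 0.059 to 0.125 in 3D against 2D, -0.30 to -0.24 under GO-203, 0.23 to 0.28 on MUC1 silencing and -0.81 to -0.73 on MYC silencing, 1 to 2 genes higher under GO-203 than on MUC1 silencing and 0 to 1 lower under GO-203 than on MYC silencing (without tet-MYCshRNA DOX replicate 1). Genes that changed sign in this way had not passed the test: CDC45 (-0.046 to 0.038), ORC6 (-0.034 to 0.031), E2F1 (-0.063 to 0.031), GINS2 (-0.112 to 0.081), POLE2 (-0.082 to 0.007) and POLE (-0.048 to 0.022) in 3D against 2D, BRIP1 (-0.094 to 0.042) and TIPIN (-0.019 to 0.046) under GO-203, POLD3 (-0.046 to 0.075) and UNG (-0.110 to 0.022) on MUC1 silencing, and SLBP (-0.025 to 0.077) and CDT1 (-0.120 to 0.254) in the difference of MUC1 and MYC silencing. Calls lost without at least 1 library numbered 6 in 3D against 2D, 5 under GO-203, 5 on MUC1 silencing and 2 on MYC silencing.

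The replicate numbers did not pair the samples: deviations of same-numbered libraries correlated by -0.02, 0.06, 0.02 and -0.10 on average in the 4 comparisons. With the replicate block 19 genes were higher and 11 lower in 3D against 2D, 35 were lower under GO-203, 29 were higher and 6 lower on MUC1 silencing and 46 were lower on MYC silencing. Of the 37 genes higher under GO-203 than on MYC silencing, 34 kept the call with the block, and RFC2, RFC5 and SLBP lost it. MSH6 lost its call in the difference of MUC1 and MYC silencing.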
